A study of Mus musculus with 20 samples.

Results

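Expression of 10 genes of MAP kinase feedback inhibition was examined in perfused mouse hearts with and without ischemia-reperfusion (IR). The genes were 8 dual-specificity phosphatases (Dusp1, Dusp2, Dusp4, Dusp5, Dusp6, Dusp8, Dusp10 and Dusp16) and 2 Sprouty genes (Spry2 and Spry4). They were chosen by name as known inhibitors that act back on MAP kinase signaling, with earlier results of these data known. Their symbols were matched to the Ensembl gene IDs of the expression table. All 10 were found among the 31874 genes of the table, and all 10 passed the filter on low values that left 18219 genes for testing.

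The study asked how hearts rich in endogenous n-3 polyunsaturated fatty acids respond to IR. RNA-seq was performed on ventricular tissue of 20 hearts from mice aged 3 months, with 5 independent hearts in each of 4 groups. WT hearts came from C57BL/6J mice, and fat-1 hearts came from Fat-1 transgenic mice, which carry a fatty acid desaturase gene of Caenorhabditis elegans that turns n-6 into n-3 fatty acids. The promoter of the transgene and the sex of the animals were not given in the sources used here. All hearts were isolated and perfused with buffer on a Langendorff apparatus, so none was in contact with circulating blood. The control hearts (WT-Con and Fat1-Con) received 120 min of continuous perfusion. The IR hearts (WT-IR and Fat1-IR) were equilibrated for 40 min, then underwent 20 min of no-flow ischemia of the whole heart and 60 min of reperfusion. The control hearts of both genotypes therefore share with the IR hearts the isolation and the time on the apparatus, and IR values below are relative to perfused, not fresh, tissue.

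MAP kinases (ERK, JNK and p38) are switched on by phosphorylation of a threonine and a tyrosine in their activation loop. Dual-specificity MAP kinase phosphatases remove both phosphates, and several of them are transcribed in response to the kinases that they inactivate. Sprouty proteins act further upstream and dampen the signal that passes from receptor tyrosine kinases through Ras to ERK.

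Expression is given as FPKM, the number of fragments relative to exon length and library depth, a scale on which genes of unequal length can be compared. Differences are given on the scale of log2(FPKM + 0.1), with the standard error (SE) of limma's fit to the 4 groups and p adjusted over all 18219 genes. A gene was called where its adjusted p was below 0.05 and its fold change exceeded 1.5. The libraries held 15626847 to 25993335 fragments assigned to genes (median 19526067), and the members were counted from 9 to 4128 fragments per heart. Cardiomyocyte markers (8 genes, among them Myh6 and Tnnt2) summed to 11630 to 25419 FPKM per heart, whereas hepatocyte markers (3 genes) summed to 0.921 to 2.76 FPKM. Mitochondrially encoded transcripts took 15.1% of fragments in WT-Con 5 and 13.9% in Fat1-IR 1, against 28.4% to 39.3% in the other 18 hearts. Summed lymphocyte markers (7 genes) reached 43.4 FPKM in Fat1-IR 4, against 0.137 to 1.75 in the other 19 hearts. Summed adipocyte markers (5 genes) reached 95.01 FPKM in Fat1-IR 1, against 1.002 to 26.3 in the other 19. In bulk tissue, fewer cells of a type and less RNA per cell cannot be told apart.

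After IR, Dusp1 and Dusp6 rose in both genotypes, and Dusp10 fell in WT hearts. The other 7 members passed the thresholds in neither genotype, and 0 of 10 passed them between the genotypes. In WT hearts 2 of 10 members were called higher, against 2.01% of all genes tested, and 1 of 10 was called lower, against 1.19%. In fat-1 hearts 2 of 10 were called higher, against 1.30% of all genes, and 0 of 10 lower, against 0.703%. In either direction, 3 of 10 were called in WT hearts, against 3.20% of all genes. Because the members were chosen with earlier results known, these shares give a background and do not test for enrichment. With voom, limma's method for counts, run on recovered fragments, the counts of members were the same. At an unadjusted p under 0.05, 2 of 10 were higher and 4 of 10 lower in WT hearts, against 9.84% and 5.09% of all genes. In fat-1 hearts 3 of 10 were higher and 0 of 10 lower at that limit, against 8.38% and 4.17%. The values of each heart are plotted for all 10 genes.

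**Figure D1:**
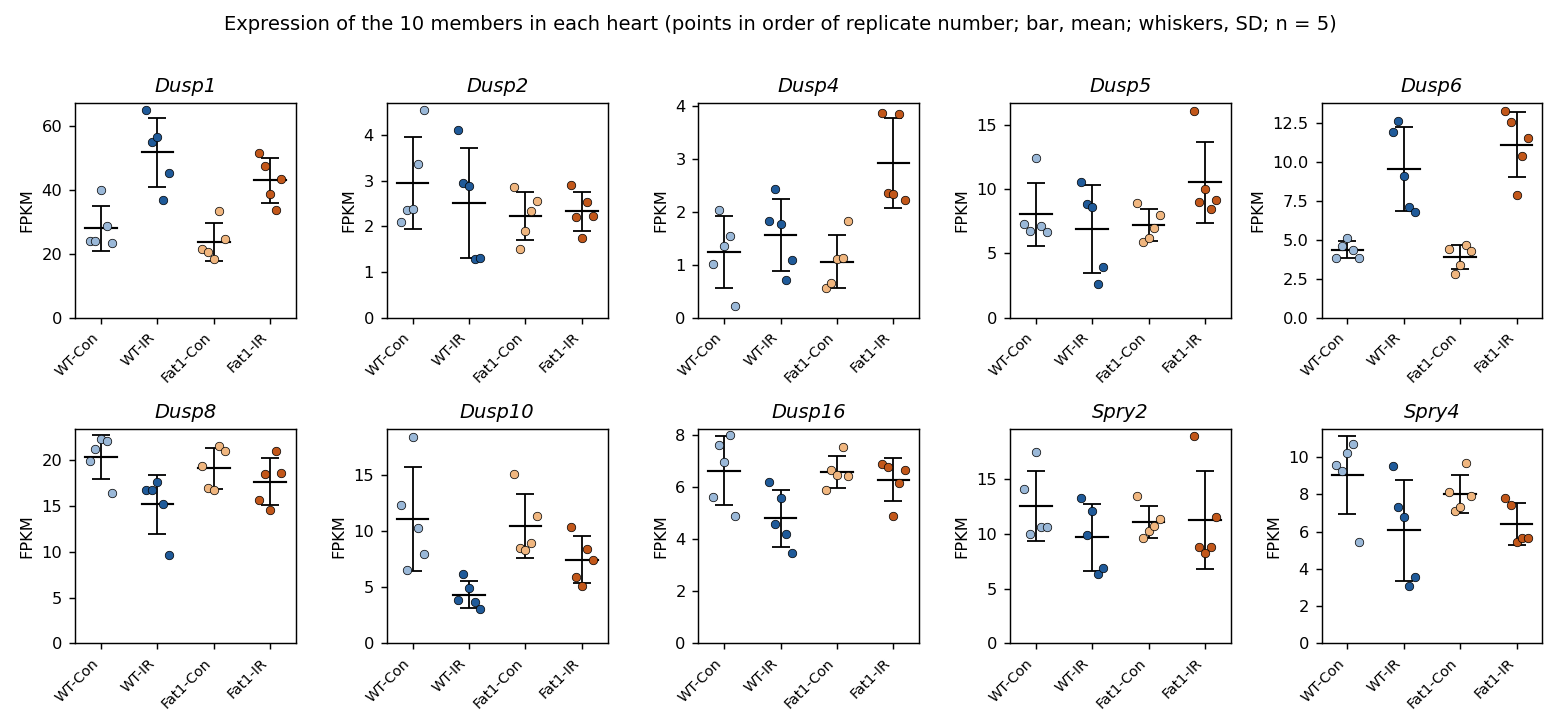
FPKM of each member in each of the 20 hearts, with the 4 groups on the horizontal axis of each panel, points in order of replicate number, the horizontal bar at the mean and whiskers of 1 SD (n = 5). The 10 IR hearts lie above the 10 control hearts for Dusp6, and the 5 WT-IR hearts lie below the 5 WT-Con hearts for Dusp10.

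Stretches of 4 members' promoters are shown from the RefSeq promoter windows of the GRCm38.p6 assembly, which reach from 250 bases before to 50 bases after the transcription start of each gene in RefSeq. That start is taken as the start below, and it can lie inside the gene's GENCODE span, which covers every annotated transcript. It lay at 26508472 for Dusp1 and at 142095284 for Dusp8, 53656 and 559 bases inside the outer GENCODE end, so both stretches lie within the span of a longer transcript. For Dusp5 it was 36 bases inside, at 53529145, and for Dusp6 the starts coincided. The stretches were chosen to set Dusp1 and Dusp6, which rose, beside Dusp8 and Dusp5, which hold motifs of regulated transcription and were not called. Since they were chosen by response and by motif, they cannot test whether such motifs go with a rise. Each is written 5′ to 3′ on the strand of its gene and lies outside the exons of protein-coding genes. Capitals mark matches to the cyclic AMP response element (CRE, TGACGTCA), to its half-site TGACG or the reverse complement of that, or to the CArG box bound by serum response factor.
Dusp1, chr17:26508588-26508683: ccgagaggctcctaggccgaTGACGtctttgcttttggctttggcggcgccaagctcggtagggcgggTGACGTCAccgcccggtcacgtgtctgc
Dusp8, chr7:142095320-142095411: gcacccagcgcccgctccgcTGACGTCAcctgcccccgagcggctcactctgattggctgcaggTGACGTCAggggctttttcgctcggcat
Dusp5, chr19:53529043-53529108: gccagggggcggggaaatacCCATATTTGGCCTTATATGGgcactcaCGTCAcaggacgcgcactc
Dusp6, chr10:99263081-99263230: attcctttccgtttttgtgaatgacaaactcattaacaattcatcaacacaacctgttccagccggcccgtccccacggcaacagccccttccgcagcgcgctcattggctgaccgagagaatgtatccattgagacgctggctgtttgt
The Dusp1 stretch (minus strand) holds a full CRE that begins 143 bases before the start and a separate half-site at 191 bases before it. The Dusp8 stretch (minus strand) holds 2 full CREs, at 107 and 63 bases before the start. The Dusp5 stretch (plus strand) holds 2 adjacent CArG boxes, at 82 and 72 bases before the start, and a CRE half-site at 55. In the 150 bases before the start of Dusp6 (plus strand), none of these letters was found. Both strands were searched in the windows of the 8 members that were read. A full CRE was present in 1.79% of 32851 promoter windows of the same length, the half-site alone or within a CRE in 20.8%, and a CArG box in 1.63%. The AP-1 motif TGANTCA (7.81% of all windows) and the TATA motif TATAAA (13.6%) had 0 matches in these 8 windows. The windows of Dusp10 and Spry2 held none of the motifs, that of Dusp2 held a half-site 6 bases after the start, and that of Dusp16 held one 70 bases before it. The start used for Dusp10 lay 21079 bases inside the outer GENCODE end, so its window does not cover the outer start. These matches describe letters and are not evidence that a factor bound there. Motifs other than those named here were not searched.

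Dusp1, Dusp2, Dusp4 and Dusp5 encode the inducible nuclear phosphatases of the family. Of these, Dusp1 rose after IR in both genotypes by nearly equal amounts, while Dusp2, Dusp4 and Dusp5 were not called. Dusp1 (MKP-1; ENSMUSG00000024190; mm10 chromosome 17, 26505590 to 26562128, minus strand) is an immediate-early gene whose product acts on p38, JNK and ERK, and its mean FPKM over the 20 hearts ranked above 95.3% of the genes tested. In WT-Con hearts 1 to 5, Dusp1 was 23.9, 23.9, 39.9, 28.7 and 23.5 FPKM. In WT-IR hearts 1 to 5 it was 64.9, 55.1, 56.7, 36.8 and 45.4 FPKM. WT-Con 3 was higher than WT-IR 4, so the groups overlapped, and the other 4 WT-Con hearts lay below every WT-IR heart. The means were 27.9 ± 7.01 and 51.8 ± 10.9 FPKM (SD, n = 5), a difference of 0.89 (SE 0.18, adjusted p = 0.00757) or 1.85-fold. In Fat1-Con hearts 1 to 5, Dusp1 was 21.4, 20.7, 18.5, 33.4 and 24.6 FPKM, and in Fat1-IR hearts 1 to 5 it was 51.4, 47.5, 38.8, 33.7 and 43.2 FPKM. All 5 Fat1-IR hearts lay above the 5 Fat1-Con hearts, although the highest control (Fat1-Con 4) and the lowest IR heart (Fat1-IR 4) nearly met. The difference was 0.87 (SE 0.18, adjusted p = 0.0123) or 1.83-fold. The response of fat-1 hearts minus that of WT hearts was -0.02 (95% interval -0.57 to 0.52).

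Dusp2 (PAC-1; ENSMUSG00000027368; chromosome 2, 127336159 to 127338376, plus strand), a phosphatase of ERK and p38 best known from immune cells, was expressed at a low level in every group. It was 2.10, 2.36, 2.38, 3.36 and 4.54 FPKM in WT-Con hearts 1 to 5 and 4.11, 2.95, 2.88, 1.29 and 1.30 FPKM in WT-IR hearts 1 to 5. It was 2.85, 1.504, 1.89, 2.32 and 2.54 FPKM in Fat1-Con hearts and 2.90, 2.20, 1.75, 2.53 and 2.23 FPKM in Fat1-IR hearts. The ranges overlapped in both genotypes, and the differences were -0.31 (95% interval -0.90 to 0.28) in WT and 0.08 (-0.51 to 0.67) in fat-1 hearts. Dusp2 in Fat1-IR 4, the heart with the lymphocyte markers, was within the range of the other Fat1-IR hearts.

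Dusp4 (MKP-2; ENSMUSG00000031530; chromosome 8, 34807297 to 34819894, plus strand), which acts on ERK, JNK and p38 in the nucleus, had the lowest mean of the 10 genes in 3 of the 4 groups. In WT-Con hearts 1 to 5 it was 1.01, 2.03, 1.36, 1.55 and 0.210 FPKM, and the value of WT-Con 5 rests on 9 fragments. In WT-IR hearts 1 to 5 it was 1.82, 2.43, 1.77, 0.705 and 1.08 FPKM. These ranges overlapped, with a difference of 0.46 (95% interval -0.44 to 1.35) that became -0.01 without WT-Con 5. In Fat1-Con hearts 1 to 5 Dusp4 was 0.559, 0.651, 1.11, 1.13 and 1.83 FPKM, and in Fat1-IR hearts 1 to 5 it was 3.88, 2.35, 2.33, 3.85 and 2.23 FPKM. Every Fat1-IR heart was above every Fat1-Con heart, and Fat1-IR 1 and Fat1-IR 4, both among the hearts that stood apart, were the highest. The difference in fat-1 hearts was 1.45 (SE 0.43, 95% interval 0.56 to 2.35), or 2.74-fold, with an adjusted p = 0.0896, so Dusp4 was not called. Without WT-Con 5 the same difference had an adjusted p = 0.0104, and over the 31 alternatives the adjusted p ranged from 0.0104 to 0.217. The shared spread of the fit includes WT-Con 5.

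Dusp5 (ENSMUSG00000034765; chromosome 19, 53529109 to 53542431, plus strand), a nuclear phosphatase specific to ERK, had differences of opposite sign in the 2 genotypes, and neither was called. It was 7.31, 6.76, 12.5, 7.13 and 6.65 FPKM in WT-Con hearts 1 to 5 and 10.6, 8.86, 8.65, 2.64 and 3.98 FPKM in WT-IR hearts 1 to 5. WT-IR 4 and WT-IR 5 lay below every WT-Con heart, while WT-IR 1 to 3 lay above 4 of the 5. It was 8.95, 5.86, 6.23, 6.997 and 8.02 FPKM in Fat1-Con hearts 1 to 5 and 16.1, 8.998, 10.01, 8.48 and 9.18 FPKM in Fat1-IR hearts 1 to 5. The lowest Fat1-IR heart lay within the Fat1-Con range. The differences were -0.35 (95% interval -0.97 to 0.28) in WT and 0.52 (-0.11 to 1.15) in fat-1 hearts. Dusp5 shares 547 exon bases with an antisense transcript, AC137853.2, whose mean was 0.0233 FPKM, and whether the counting used strand is not stated.

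Dusp6 (MKP-3; ENSMUSG00000019960; chromosome 10, 99263231 to 99267489, plus strand) encodes the cytoplasmic phosphatase that is selective for ERK and is transcribed in response to ERK activity in many cells. It had the largest fitted increase of the 10 in WT and in fat-1 hearts, and it was the only member whose 10 IR hearts lay above its 10 control hearts. Separation upwards within each genotype, with 5 IR hearts above the 5 controls of that genotype, was seen in 0.895% of all genes tested. Dusp6 was the only member with it. None of the 10 members had the IR hearts below the control hearts within each genotype, as 0.478% of all genes did. In WT-Con hearts 1 to 5, Dusp6 was 3.86, 4.63, 5.14, 4.33 and 3.82 FPKM. In WT-IR hearts 1 to 5 it was 11.9, 12.7, 9.14, 7.11 and 6.81 FPKM. The WT means were 4.36 ± 0.553 and 9.53 ± 2.70 FPKM (SD, n = 5), and the difference was 1.08 (SE 0.19, adjusted p = 0.00187) or 2.11-fold. WT-IR 1 and WT-IR 2 were the highest, and WT-IR 4 and WT-IR 5 were the lowest of the group. In Fat1-Con hearts 1 to 5, Dusp6 was 4.39, 2.83, 3.39, 4.70 and 4.29 FPKM, and in Fat1-IR hearts 1 to 5 it was 13.3, 12.6, 7.89, 10.4 and 11.5 FPKM. The fat-1 means were 3.92 ± 0.779 and 11.1 ± 2.12 FPKM, and the difference was 1.48 (SE 0.19, adjusted p = 0.000105) or 2.80-fold. The response was larger by 0.41 in fat-1 hearts, with a 95% interval of -0.14 to 0.96 that includes 0 and an adjusted p = 0.831. Averaged over both genotypes, the response was 1.28 (SE 0.13).

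Dusp8, Dusp10 and Dusp16 encode phosphatases that prefer the stress-activated kinases JNK and p38. Of these, Dusp10 fell in WT hearts, and Dusp8 and Dusp16 were not called. Dusp10 (MKP-5; ENSMUSG00000039384; chromosome 1, 184013302 to 184075636, plus strand) was 12.4, 6.56, 18.4, 10.3 and 7.95 FPKM in WT-Con hearts 1 to 5. It was 3.90, 6.19, 4.90, 3.68 and 3.10 FPKM in WT-IR hearts 1 to 5. Every WT-IR heart lay below every WT-Con heart, although WT-IR 2 and WT-Con 2 were close. Dusp10 was the 1 member of 10 with this separation downwards in WT hearts, against 1.39% of all genes, and Dusp6 was the 1 with the separation upwards, against 3.36%. The means were 11.1 ± 4.63 and 4.35 ± 1.21 FPKM (SD, n = 5), and Dusp10 fell by 1.28 on the log2 scale (SE 0.26, adjusted p = 0.00618), to 0.412 of the control level. In Fat1-Con hearts 1 to 5 Dusp10 was 15.1, 8.53, 8.31, 8.96 and 11.4 FPKM, and in Fat1-IR hearts 1 to 5 it was 10.4, 5.93, 5.09, 8.46 and 7.42 FPKM. These ranges overlapped, with a difference of -0.49 (SE 0.26, adjusted p = 0.454). The response in fat-1 hearts minus that in WT hearts was 0.79 (95% interval 0.03 to 1.55, adjusted p = 0.831), so a difference between the genotypes did not pass the threshold over all genes.

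Dusp8 (ENSMUSG00000037887; chromosome 7, 142079490 to 142095843, minus strand), a phosphatase of JNK and p38 known from brain and heart, ranked the second by mean level of the 10 genes in each group. It was 19.9, 21.2, 22.3, 22.1 and 16.4 FPKM in WT-Con hearts 1 to 5 and 16.8, 16.7, 17.6, 15.2 and 9.61 FPKM in WT-IR hearts 1 to 5. WT-IR 5 was the lowest, and 4 of the 5 WT-Con hearts lay above every WT-IR heart. It was 19.3, 16.9, 16.7, 21.5 and 20.9 FPKM in Fat1-Con hearts and 15.6, 18.5, 14.5, 20.9 and 18.6 FPKM in Fat1-IR hearts, with overlapping ranges. The differences were -0.45 (SE 0.15, adjusted p = 0.122) in WT and -0.12 (SE 0.15, adjusted p = 0.789) in fat-1 hearts.

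Dusp16 (MKP-7; ENSMUSG00000030203; chromosome 6, 134715468 to 134792625, minus strand), a cytoplasmic phosphatase of JNK and p38, had values close to those of Dusp8 in the size of its differences. It was 5.63, 7.63, 6.99, 8.03 and 4.92 FPKM in WT-Con hearts 1 to 5 and 6.21, 4.59, 5.59, 4.19 and 3.46 FPKM in WT-IR hearts 1 to 5. It was 5.89, 6.65, 6.48, 7.55 and 6.43 FPKM in Fat1-Con hearts and 6.90, 6.80, 4.92, 6.19 and 6.68 FPKM in Fat1-IR hearts. Ranges overlapped in both genotypes, and the differences were -0.46 (SE 0.16, adjusted p = 0.126) in WT and -0.07 (SE 0.16, adjusted p = 0.883) in fat-1 hearts. In Fat1-Con and WT-Con hearts the mean level was nearly equal, at 6.60 and 6.64 FPKM.

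The Sprouty members were not called in either genotype. Spry2 (ENSMUSG00000022114; chromosome 14, 105891947 to 105896819, minus strand), which inhibits signaling from fibroblast growth factor receptors to ERK, was 14.1, 10.02, 17.5, 10.6 and 10.6 FPKM in WT-Con hearts 1 to 5 and 13.3, 9.93, 12.1, 6.33 and 6.89 FPKM in WT-IR hearts 1 to 5. It was 13.5, 9.59, 10.2, 10.7 and 11.4 FPKM in Fat1-Con hearts and 19.0, 8.84, 8.29, 8.85 and 11.6 FPKM in Fat1-IR hearts. Fat1-IR 1 was the highest of the 20 hearts, and 3 of the other 4 Fat1-IR hearts lay below every Fat1-Con heart. The differences were -0.40 (95% interval -0.88 to 0.09) in WT and -0.04 (-0.52 to 0.45) in fat-1 hearts.

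Spry4 (ENSMUSG00000024427; chromosome 18, 38586247 to 38601415, minus strand), an inhibitor of the same pathway, had lower means after IR in both genotypes without passing the threshold. It was 9.58, 9.25, 10.2, 10.7 and 5.44 FPKM in WT-Con hearts 1 to 5 and 9.51, 7.33, 6.76, 3.10 and 3.58 FPKM in WT-IR hearts 1 to 5. WT-Con 5, one of the hearts with a low mitochondrial share, was the lowest control, and WT-IR 4 and WT-IR 5 lay below it. It was 8.13, 7.12, 7.32, 9.70 and 7.93 FPKM in Fat1-Con hearts and 7.80, 7.41, 5.45, 5.68 and 5.66 FPKM in Fat1-IR hearts, where 3 hearts lay below every Fat1-Con heart. The differences were -0.65 (SE 0.25, adjusted p = 0.190) in WT and -0.33 (SE 0.25, adjusted p = 0.622) in fat-1 hearts. Without WT-Con 5 the WT difference was -0.83 with an adjusted p = 0.0473, and over the 31 alternatives the adjusted p ranged from 0.0325 to 0.431.

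**Figure D2:**
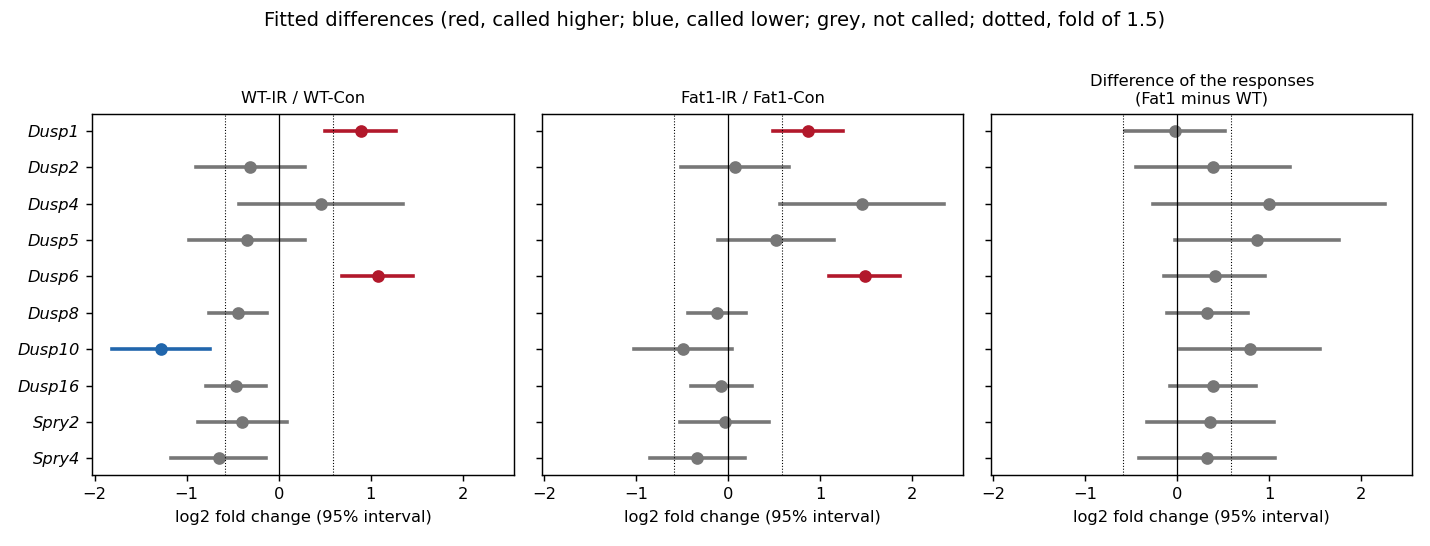
Fitted log2 fold changes of the 10 members with 95% intervals, for the IR response of WT hearts, that of fat-1 hearts and the difference of these responses, with red for called higher, blue for called lower, grey for not called and dotted lines at a fold of 1.5. Dusp1 and Dusp6 are red in both genotypes, Dusp10 is blue in WT hearts, and all 10 members are grey in the difference of the responses.

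The median difference of the 10 members was -0.37 in WT hearts, where the median of all genes was 0.04, and 0.02 in fat-1 hearts, where it was 0.08. With IR against control averaged over the genotypes, the same 3 genes were called. Dusp1 rose by 0.88 (SE 0.13) and Dusp6 by 1.28, so 2 of 10 members were called higher, against 2.86% of all genes. Dusp10 fell by 0.88 (SE 0.18, adjusted p = 0.00378), which made 1 of 10 lower, against 1.48%, and 3 of 10 in either direction, against 4.34%. At an unadjusted p under 0.05, 3 of 10 members were higher and 4 of 10 lower, against 13.0% and 6.10% of all genes. The members nearest to the threshold outside it were Dusp4, with 0.96 and an adjusted p = 0.0631, and Spry4, with -0.49 and an adjusted p = 0.104. Dusp4 was called in this comparison with array weights (0.74, adjusted p = 0.0197), with voom (0.97, adjusted p = 0.0485) and without WT-Con 2, WT-Con 5, WT-IR 4 or Fat1-Con 5 in turn, at adjusted p from 0.0344 to 0.0434. Spry4 was called there without WT-IR 1 (-0.59, adjusted p = 0.034) and without the 3 hearts that stood apart, WT-Con 5, Fat1-IR 1 and 4 (-0.60, adjusted p = 0.034). In fat-1 hearts 3 of 10 members had every IR heart above every control heart (Dusp1, Dusp4 and Dusp6), against 4.22% of all genes, and 0 of 10 had every IR heart below, against 2.46%.

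With the WT hearts fitted alone, without the fat-1 hearts, 1 of 10 members was called, Dusp6. The differences were the same in that fit, and the adjusted p became 0.0503 for Dusp1 and 0.0502 for Dusp10. Over all 31 alternatives the adjusted p of the WT response ranged from 0.00224 to 0.0503 for Dusp1, from 0.000546 to 0.0251 for Dusp6 and from 0.00219 to 0.0502 for Dusp10.

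Between the genotypes, 0 of 10 members were called in control hearts (0.0274% of all genes in either direction), and 0 of 10 had an unadjusted p under 0.05, against 2.46% of all genes higher and 3.17% lower. All 10 members overlapped between Fat1-Con and WT-Con, where 0.576% of all genes were separated upwards and 0.757% downwards. After IR, 0 of 10 were called between Fat1-IR and WT-IR (0.104% of all genes, 0.0604% higher and 0.0439% lower), and 4 of 10 had an unadjusted p under 0.05, all with higher values in Fat1-IR, against 3.45% of all genes with higher and 3.36% with lower values at that limit. These were Dusp10 with a difference of 0.76 (SE 0.26, adjusted p = 0.447), Dusp16 with 0.40 (SE 0.16, adjusted p = 0.566), Dusp5 with 0.73 (SE 0.30, adjusted p = 0.611) and Dusp4 with 0.93 (SE 0.43, adjusted p = 0.704). All 10 members overlapped between these groups, against 0.681% of all genes separated upwards and 0.906% downwards. For the interaction of genotype and IR, 0 of 10 were called (0.00549% of all genes), and 1 of 10, Dusp10, had an unadjusted p under 0.05 with a value above 0, against 2.69% of all genes above 0 and 2.62% below. The interaction was above 0 for 9 of 10 members, all but Dusp1, which was also above 0 with TPM scaling (0.09). The median of the members was 0.39, against 0.04 over all genes, and the members share the same 20 hearts. Such a shift was not limited to the members. The median interaction was 0.33 for cardiomyocyte markers, and it was -0.24 for endothelial and -0.28 for fibroblast markers. With voom on recovered fragments, 0 of 10 were called in each of these 3 comparisons as well. These counts do not show that the genotypes are alike, since the 95% interval for Dusp4 after IR reached 1.82 and that for Dusp10 reached 1.30.

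**Figure D3:**
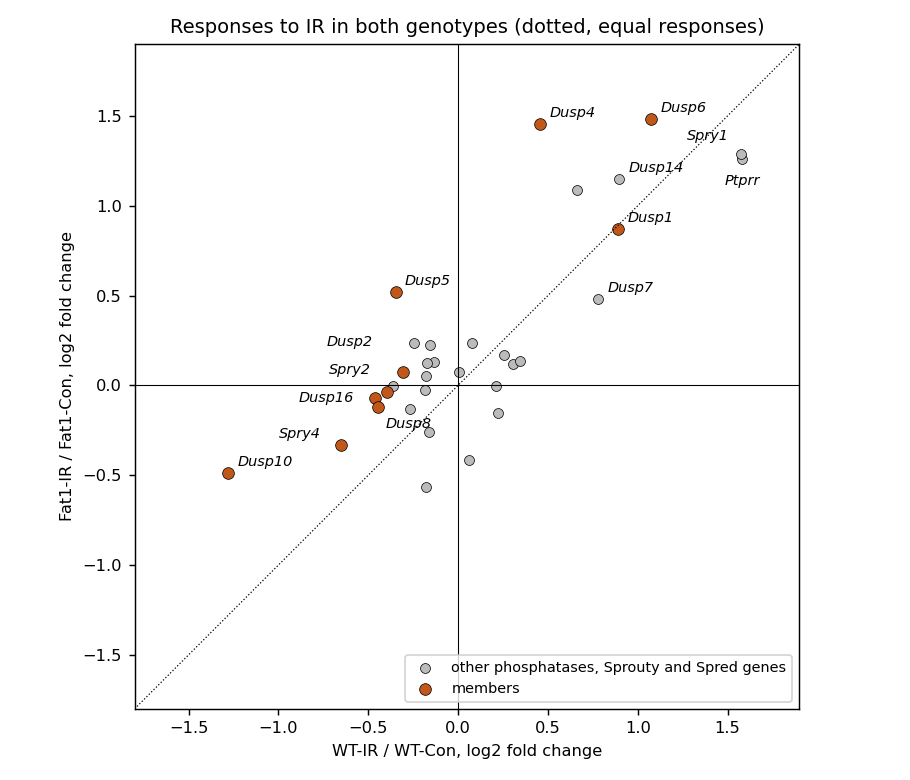
Log2 fold change after IR in WT hearts (horizontal axis) and in fat-1 hearts (vertical axis) for the 10 members in orange and for other phosphatase, Sprouty and Spred genes in grey, with a dotted line where both responses are equal. Dusp1 lies on the line, Dusp6 and Dusp4 lie above it, and Spry1 and Ptprr, which were called higher in both genotypes, lie below it.

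The order of the members' levels changed with IR. Dusp1 had the highest mean FPKM in each of the 4 groups, Dusp8 the second and Spry2 the third. Dusp6 was the eighth of 10 in both control groups and the fourth in both IR groups, with means of 4.36 and 3.92 FPKM before and 9.53 and 11.1 after. Dusp10 was the fourth in both control groups, the eighth in WT-IR and the sixth in Fat1-IR. Most neighbours in this order had overlapping ranges over the 5 hearts, namely 7 of 9 neighbouring pairs in WT-Con, 8 of 9 in WT-IR, 7 of 9 in Fat1-Con and 7 of 9 in Fat1-IR. Dusp1 lay above Dusp8 without overlap in WT-Con, WT-IR and Fat1-IR, and the other neighbours without overlap were Dusp2 and Dusp4 in WT-Con, Dusp8 and Spry2 and also Dusp16 and Dusp6 in Fat1-Con, and Dusp16 and Dusp4 in Fat1-IR.

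Some hearts were low or high for many members at once. WT-IR 4 and WT-IR 5 were the 2 lowest hearts of the WT-IR group for all 10 members, including those that rose. WT-IR 4 was the lowest for 6 and WT-IR 5 for 4. Their mitochondrial shares, at 28.4% and 39.3%, were the lowest and the highest of the WT-IR group. Their summed endothelial markers (7 genes) were 125.7 and 145.2 FPKM, against 147.7 to 167.5 in WT-IR 1 to 3, and their summed fibroblast markers (7 genes) were 175.7 and 182.2, against 204.4 to 215.3. Their summed red cell markers (4 genes) were also lower, at 2.68 and 1.497 FPKM against 6.17 to 8.09. No other list had both hearts below WT-IR 1 to 3. Summed hepatocyte markers were higher in both, at 2.19 and 2.76 FPKM against 1.18 to 1.25. Summed smooth muscle and pericyte markers were 244.9 and 220.1 FPKM against 236.04 to 249.4, macrophage markers 104.3 and 110.4 against 94.7 to 111.7, adipocyte markers 4.10 and 3.32 against 3.80 to 9.38, and cardiomyocyte markers 15209 and 11630 against 11892 to 12824. The part of these in the members' values was not tested. WT-Con 5 was the lowest heart of its group for 7 members, Fat1-IR 3 for 7, and Fat1-IR 1 was the highest of its group for 9.

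**Figure D4:**
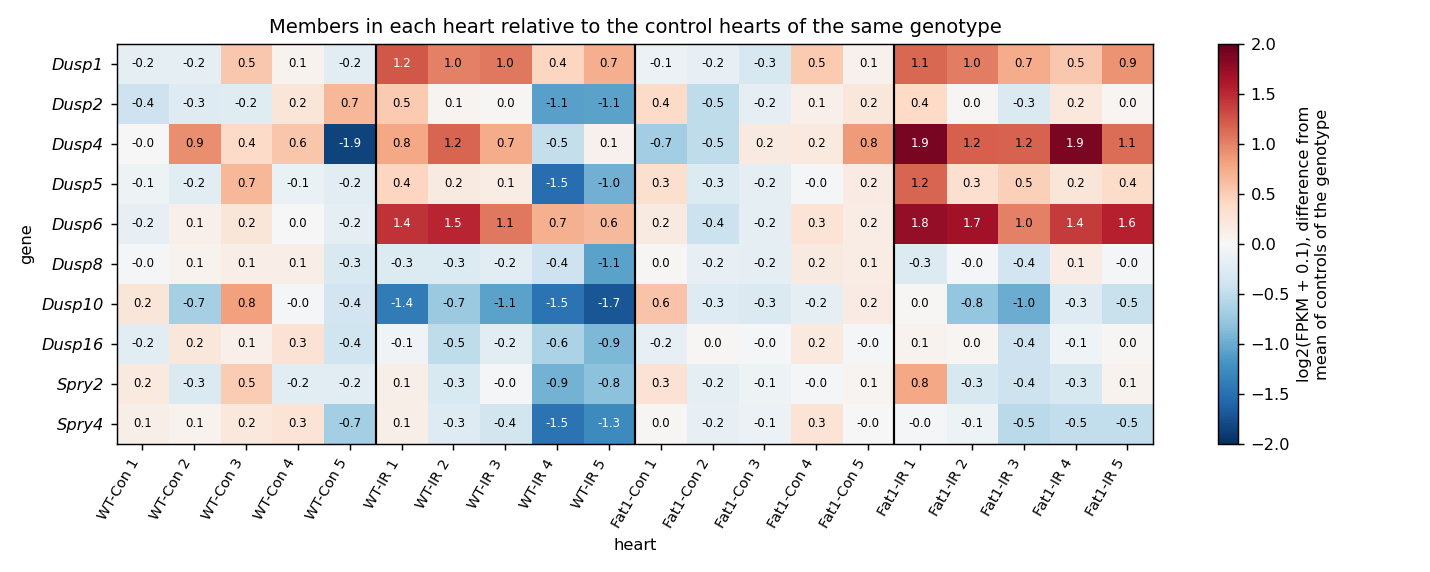
Each member (vertical axis) in each heart (horizontal axis), as the difference of log2(FPKM + 0.1) from the mean of the control hearts of the same genotype, with red for higher and blue for lower values. Dusp6 is positive in all 10 IR hearts and Dusp10 is negative in all 5 WT-IR hearts, and WT-IR 4 and WT-IR 5 are the 2 lowest WT-IR hearts in every line.

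Some markers of other cell types were also called. Among 7 endothelial markers, 2 were called higher in WT hearts (Tie1 by 0.63 and Kdr by 0.99) and 0 in fat-1 hearts, with summed levels of 69.2 to 130.1 FPKM in WT-Con, 125.7 to 167.5 in WT-IR, 100.7 to 121.1 in Fat1-Con and 115.6 to 137.5 in Fat1-IR. Among 7 macrophage markers, 2 were called higher in WT hearts (Lyve1 and Mrc1), with summed levels of 63.2 to 162.8 FPKM in WT-Con, 94.7 to 111.7 in WT-IR, 57.8 to 73.0 in Fat1-Con and 69.4 to 112.4 in Fat1-IR. Among 7 fibroblast markers, 1 was called higher in WT hearts (Tcf21), with summed levels of 131.5 to 162.3 FPKM in WT-Con, 175.7 to 215.3 in WT-IR, 138.3 to 144.7 in Fat1-Con and 128.2 to 177.3 in Fat1-IR. Of 7 smooth muscle and pericyte markers, 0 were called by limma or voom, and 3 in WT and 1 in fat-1 hearts were higher at an unadjusted p under 0.05. Their summed levels did not overlap in WT hearts, at 176.6 to 200.3 FPKM in WT-Con and 220.1 to 249.4 in WT-IR, and were 179.3 to 207 in Fat1-Con and 185.5 to 240 in Fat1-IR. Of 8 cardiomyocyte markers, 0 were called by either method, and 1 was lower in WT hearts and 0 in fat-1 hearts at an unadjusted p under 0.05. Cfd, an adipocyte marker, was called higher in fat-1 hearts. At an unadjusted p under 0.05, 4 of 4 tested adipocyte markers were higher in fat-1 hearts and 0 in WT hearts. Hbb-bs, a hemoglobin gene and 1 of 4 red cell markers, was called higher with the genotypes averaged (1.69, SE 0.50, adjusted p = 0.0427), where Kdr (0.78) and Lyve1 (0.73) were called as well. Summed red cell markers were 0.647 to 7.10 FPKM in WT-Con, 1.497 to 8.09 in WT-IR, 0.214 to 3.01 in Fat1-Con and 1.74 to 10.99 in Fat1-IR. No endothelial, macrophage or fibroblast marker was at 0 in every heart of a group. At an unadjusted p under 0.05, 7 of 7 fibroblast, 6 of 7 endothelial and 3 of 7 macrophage markers were higher in WT hearts, against 9.84% of all genes. In fat-1 hearts 3, 4 and 2 were higher, against 8.38%, and 1 macrophage marker was lower in each genotype. Between the IR groups, 3 fibroblast, 1 endothelial and 4 macrophage markers were lower in Fat1-IR and 0 higher, against 3.36% of all genes lower. In the same order, 2, 0 and 3 markers had every Fat1-IR heart below every WT-IR heart, against 0.906% of all genes. Between the control groups, 3 macrophage markers were lower in Fat1-Con at an unadjusted p under 0.05, against 3.17% of all genes. There 1 fibroblast marker was higher, and 0 endothelial markers passed that limit. In the interaction, 2 fibroblast, 1 endothelial and 0 macrophage markers were below 0 at that limit and 0 above. The macrophage difference was therefore not specific to the IR hearts. The part of these cells in the responses of Dusp1, Dusp6 and Dusp10 was not tested.

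Other genes of the same feedback system were counted from lists. Of all genes tested, 2.01% were called higher and 1.19% lower in WT hearts, 1.30% and 0.703% in fat-1 hearts, and 2.86% and 1.48% averaged. At an unadjusted p under 0.05, 9.84% were higher and 5.09% lower in WT hearts, and 8.38% and 4.17% in fat-1 hearts. Of 12 tested genes among the other MAP kinase phosphatases and atypical dual-specificity phosphatases (17 listed), 0 were called in WT hearts and 0 in fat-1 hearts, and 2 were called higher with the genotypes averaged. By voom the counts were the same, and 4 in WT and 1 in fat-1 hearts had an unadjusted p under 0.05, all higher. The 2 called were Dusp14 (1.02, SE 0.23, adjusted p = 0.00733) and Dusp7 (0.63, SE 0.17, adjusted p = 0.029), the latter a cytoplasmic ERK phosphatase closely related to Dusp6. Dusp14 was low, with means of 0.208 FPKM in WT-Con, 0.481 in WT-IR, 0.171 in Fat1-Con and 0.487 in Fat1-IR. Of the 4 tested among 5 other Sprouty and Spred genes, 1 was called, Spry1, which inhibits the pathway as Spry2 and Spry4 do. Spry1 rose from 2.65 ± 1.02 to 7.72 ± 0.636 FPKM in WT hearts (difference 1.58, SE 0.21, adjusted p = 0.000237) and from 2.38 ± 0.343 to 6.12 ± 1.85 FPKM in fat-1 hearts (1.29, SE 0.21, adjusted p = 0.00139). In the same hearts Spry2 and Spry4 had the differences given above, of -0.40 and -0.65 in WT and -0.04 and -0.33 in fat-1 hearts. Of 7 tested genes among 8 tyrosine and serine-threonine phosphatases that act on MAP kinases, 1 was called, Ptprr, a tyrosine phosphatase that binds ERK and p38. Ptprr rose from 0.0569 ± 0.0329 to 0.367 ± 0.0768 FPKM in WT hearts (difference 1.58, SE 0.22, adjusted p = 0.000349). In fat-1 hearts it rose from 0.0888 ± 0.0349 to 0.350 ± 0.0775 FPKM (1.26, SE 0.22, adjusted p = 0.00257). Its means in both control groups lay below 0.1 FPKM, the value of the filter and of the pseudocount. Ptprr therefore passed the filter only through the IR groups, where it was high.

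Genes of the kinases and of the signals upstream of them were counted in the same way. Of all genes, 2.01% were called higher and 1.19% lower in WT hearts, and 1.30% and 0.703% in fat-1 hearts. In kinase lists of 7 to 18 genes, counts of 0 or 1 cannot be told apart from these shares. Of 12 tested MAP kinases, 0 were called in either genotype by limma on FPKM or by voom, and 2 in WT and 1 in fat-1 hearts had an unadjusted p under 0.05. Of 7 MAP kinase kinases, 0 were called by either method, with 2 (both lower) in WT and 0 in fat-1 hearts at an unadjusted p under 0.05. Of 18 tested MAP kinase kinase kinases, 1 was called lower in WT hearts, Map3k11, a kinase upstream of JNK, which fell by 0.71 from 11.8 ± 1.60 to 7.16 ± 1.16 FPKM (SE 0.12, adjusted p = 0.00155). Map3k11 was also called lower with the genotypes averaged (-0.61, SE 0.09, adjusted p = 8.78e-05). Of 19 tested genes of Ras and its regulators, 2 were called higher in WT hearts, the Ras family exchange factors Rasgrp2 (1.10, SE 0.20, adjusted p = 0.00332) and Rasgrp3 (0.76, SE 0.20, adjusted p = 0.0343). In fat-1 hearts 0 were called, voom also called 0, and 2 had an unadjusted p under 0.05. Rasgrp2 was called higher with the genotypes averaged as well (0.85, SE 0.14, adjusted p = 0.000584). Of 23 tested growth factor receptors and ligands, Kdr, a receptor of vascular endothelial growth factor, was called higher in WT hearts, and Hbegf, a ligand of the epidermal growth factor receptor, fell by 1.16 from 28.7 ± 9.72 to 12.9 ± 4.47 FPKM (SE 0.28, adjusted p = 0.022). With the genotypes averaged, Kdr (0.78, adjusted p = 0.00774) and Hbegf (-0.71, adjusted p = 0.0331) were called again. In fat-1 hearts Fgf2, a growth factor that signals through ERK, fell by 0.72 (SE 0.17, adjusted p = 0.0284).

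Among 22 transcription factors and targets that respond to ERK, 5 were called higher in WT hearts, 4 in fat-1 hearts and 7 with the genotypes averaged. The shares of all genes called higher were 2.01%, 1.30% and 2.86%. In the list, 0 were called lower, against 1.19%, 0.703% and 1.48% of all genes. With voom the counts were 5, 6 and 7 higher, and Junb and Egr1 were the 2 added in fat-1 hearts, named after their values were seen. At an unadjusted p under 0.05, 6 of 22 were higher and 1 lower in WT hearts, against 9.84% and 5.09% of all genes. In fat-1 hearts 12 of 22 were higher and 0 lower at that limit, against 8.38% and 4.17%. Fos, a subunit of AP-1, rose from 56.3 ± 38.6 to 199.8 ± 94.6 FPKM in WT hearts (difference 1.89, adjusted p = 0.00356) and from 50.1 ± 17.2 to 246 ± 43.3 FPKM in fat-1 hearts (2.34, adjusted p = 0.000649). Fosb rose in both genotypes as well, by 1.86 and 2.31. Elk3, an ETS factor activated by ERK, rose by 0.88 and Ccnd1, a cyclin, by 1.11 in WT hearts. Both were also called higher with the genotypes averaged, by 0.64 (adjusted p = 0.000136) and 0.80 (adjusted p = 0.00042). Jun, another AP-1 subunit, rose in both genotypes, by 0.96 (adjusted p = 0.0151) in WT and 1.56 (adjusted p = 0.00033) in fat-1 hearts. Phlda1 rose by 1.14 in fat-1 hearts. The medians of this list were 0.15 in WT and 0.44 in fat-1 hearts, against 0.04 and 0.08 over all genes, and all lists were chosen with earlier results of these data known. Over all these lists (124 genes tested), 0 genes were called between the control groups, 0 between the IR groups and 0 in the interaction. This held by limma on FPKM and by voom, and the shares of all genes by limma were 0.0274%, 0.104% and 0.00549%. At an unadjusted p under 0.05 there were 4, 14 and 9, of which 3, 8 and 5 were above 0 and 1, 6 and 4 below. Over all genes 2.46%, 3.45% and 2.69% were above 0 and 3.17%, 3.36% and 2.62% below at that limit.

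For each member that was called, the genes with the most similar profile over the 20 hearts were found among 11044 genes averaging 1 FPKM or more, by the root-mean-square difference of the standardised log2 values in SD units. For Dusp1 these were Nr4a2 (0.351), an immediate-early nuclear receptor, Crispld2 (0.396) and Id3 (0.405), an inhibitor of basic helix-loop-helix factors. For Dusp6 they were Gla (0.314), which encodes alpha-galactosidase A, Klf2 (0.330), a transcription factor of endothelium, and Hspa1b (0.336), an inducible HSP70. For Dusp10 they were Klhl41 (0.365), Lmcd1 (0.370) and Klhl40 (0.385), of which the Klhl genes encode muscle proteins of the Kelch family. Likeness of profiles over hearts in 4 groups follows the group differences and says nothing about shared control.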

How the data were processed

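Libraries of ventricular RNA from 20 hearts were prepared with the NEBNext Ultra kit and sequenced on the HiSeq platform. The authors deposited FPKM per gene and heart, and their processing notes name HISAT2, featureCounts and mm10. For tool versions, annotation release and strand setting, the sources used here give nothing. Hearts were grouped by their labels.

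FPKM multiplied by the exon length of GENCODE M21 gave whole fragments in every heart for 30746 of 31217 genes (98.5%, zeros included, tolerance 0.02, values over 1000 fragments not examined), so fragments and depth were recovered. A further 657 IDs were not in that annotation, which also gave names and coordinates.

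The test used log2(FPKM + 0.1), which understates changes of low genes, for the 18219 genes averaging 0.1 FPKM or more (13655 fell below). limma 3.58.1 in R 4.3.3 fitted 4 group means with a variance trend, and two-sided p-values were adjusted by Benjamini-Hochberg over all genes tested. Tables and figures were made in Python 3.11.15 with pandas 2.3.3, numpy 2.4.6 and matplotlib 3.10.9. The fits were tested on simulated data.

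As alternatives, the pseudocount was set to 0.01 or 1, the filter was dropped or raised to 1 FPKM, and values were rescaled by median of ratios or to TPM. Further alternatives were a fit of the compared groups alone, replicate number as a block, array weights, voom on the fragments, no fold threshold, and fits without each heart or without 3 hearts together (WT-Con 5 and Fat1-IR 1 and 4). Named genes were all 10 members, up to 4 called genes per other list and comparison (smallest p first), called markers, and the 3 genes most like each called member. The members, lists, tests and these 3 hearts were chosen with earlier results of these data known.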

Additional observations from a re-analysis of the deposited data

Results flagged for a closer look

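In 3 of 40 groups of 5 hearts examined (10 members in 4 groups), 1 heart lay far from the other 4 relative to the range of its group. Chance gives such a heart in about 1 of 20 groups. Dusp5 was 12.45 FPKM (685 fragments) in WT-Con 3, against 6.65 to 7.31 in the rest of that group. In Fat1-IR 1 it was 16.08 FPKM (752 fragments), where the group's other values were 8.48 to 10.01. Spry4 was 5.437 FPKM (404 fragments) in WT-Con 5 and 9.25 to 10.71 in the remaining controls of that genotype.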

How the results depend on the processing

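The number of members called was 3 in WT hearts, 2 in fat-1 hearts and 3 with the genotypes averaged. Leaving out each heart in turn gave 3 to 4, 2 to 3 and 3 to 4, and 0 in each comparison between genotypes and in the interaction. With the compared groups fitted alone, the WT count was 1. Replicate numbers did not pair the hearts. After the group mean of each gene was subtracted, 0 of 30 pairs of same-numbered hearts correlated over 0.1 (range -0.136 to 0.0604). With replicate number as a block the counts were again 3, 2, 3 and 0.

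The calls of Dusp1 and Dusp6 in fat-1 hearts and of Dusp1, Dusp6 and Dusp10 with the genotypes averaged held under every alternative run. Dusp4 in fat-1 hearts was called with a pseudocount of 1 (0.94), groups alone (1.45), array weights (1.26) and without WT-Con 5. Spry4 in WT hearts was called with array weights (-0.68), without the 3 hearts together and without WT-Con 5 (both -0.83). Spry4 averaged was called without the 3 hearts (-0.60) and without WT-IR 1 (-0.59).

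Differences that changed sign were all of members not called. Without the 3 hearts (WT-Con 5, Fat1-IR 1 and 4) these were Dusp4 in WT hearts (-0.006147), Dusp2 in fat-1 hearts (-0.07924), Dusp5 averaged (-0.005471), Dusp16 between control groups (-0.09029), Dusp2 between IR groups (-0.1387) and the Dusp1 interaction (0.05195). With array weights they were Dusp2 in fat-1 hearts (-0.03148), Dusp16 between control groups (-0.09935), Dusp2 (-0.2254) and Spry2 (-0.03819) between IR groups, and the Dusp1 interaction (0.02541). With TPM scaling they were Spry2 in fat-1 hearts (0.008288), Dusp16 between control groups (-0.01157) and the Dusp1 interaction (0.08708). Dusp2 between IR groups was -0.01354 with a pseudocount of 1 and -0.0001201 with median-of-ratios scaling. The causes were not tested.

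Leaving out single hearts changed further signs. Ranges were -0.006147 to 0.6915 for Dusp4 in WT hearts (lowest without WT-Con 5), and in fat-1 hearts -0.04929 to 0.1703 for Dusp2, -0.1123 to 0.01219 for Dusp16 and -0.2405 to 0.05637 for Spry2. Dusp5 averaged ranged from -0.01153 to 0.2337. Between control groups the ranges were -0.5282 to 0.1672 for Dusp4, -0.2133 to 0.03411 for Dusp5, -0.1955 to 0.1724 for Dusp10 and -0.09029 to 0.08407 for Dusp16. Between IR groups they were -0.1764 to 0.2241 for Dusp2 and -0.02075 to 0.3756 for Spry4, and the Dusp1 interaction ranged from -0.1577 to 0.1094.

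Over all genes, 367 were called higher and 216 lower in WT hearts, against 187 and 184 with TPM scaling, 188 and 162 with a pseudocount of 1, 149 and 77 for the groups alone, 642 and 351 with array weights, and 573 and 357 without the 3 hearts. In fat-1 hearts 236 were higher and 128 lower, against 208 and 177 with median-of-ratios scaling, 428 and 317 with array weights, 397 and 202 without WT-Con 5, 162 and 80 without Fat1-Con 3, and 216 and 242 without the 3 hearts, where lower calls outnumbered higher ones. Averaged, the counts were 521 and 270, against 178 and 166 with a pseudocount of 1 and 289 and 230 with the filter at 1 FPKM. The median of all genes in fat-1 hearts was 0.08, against 0.14 with TPM scaling, 0.02 with median-of-ratios scaling, 0.01 with array weights and -0.03 without the 3 hearts. Between IR groups 11 genes were higher and 8 lower, against 22 and 32 with array weights, 13 and 26 without the 3 hearts, 25 and 17 without WT-Con 5, 7 and 3 with TPM scaling, and 7 to 12 in all without WT-IR 2, 3, 4 or 5 or Fat1-IR 2. Depth limits Dusp4 most, with 9 fragments in WT-Con 5.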
